A study of Rattus norvegicus with 9 samples.

Results

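HECT ubiquitin ligases were examined in the thalamus of rats fed chow or powder, by way of 9 genes: Herc1, Herc2, Herc4, Huwe1, Nedd4, Nedd4l, Ube3a, Ube3c and Itch. Their members were all probe sets carrying 1 of these symbols alone in the platform annotation, 21 of 31042 rat probe sets, and they stood for 8 of the 9 genes, out of 14217 genes with such a probe set. Itch was not represented by a single-symbol probe set. The genes were chosen by their chow against powder values in an earlier look at the same arrays, so those values describe them, with no p-value, and nothing is read from how many of them were called.

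The thalamus was taken from male Wistar rats, 3 weeks old at the start and recorded at 5 weeks of age for every sample. All of them first ate powdered feed for 2 days. Then one group, chow, was given solid feed for 8 days (4 arrays), and the other, powder, stayed on powdered feed for 8 days (5 arrays). The labels name 10 rats and do not tie an array to an animal, so all p-values reflect how far these samples spread and no more, and some of that spread may be technical.

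HECT ligases are the enzymes that make the last step of ubiquitin transfer in 2 moves: ubiquitin passes from an E2 enzyme to a cysteine of the ligase, and from there to the substrate. The family is commonly divided into the NEDD4 group, whose WW domains bind proline-rich sequences of their targets (Nedd4, Nedd4l, Itch), the HERC group, which carries RCC1-like repeats (Herc1, Herc2, Herc4), and the remaining ligases (Huwe1, Ube3a, Ube3c). In neurons they are known for limiting receptors and channels at the membrane and for synapse growth. Ube3a is the gene lost in Angelman syndrome and is expressed mainly from the maternal copy in neurons, and Herc2 binds the protein that Ube3a encodes.

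The 3 genes whose values varied between arrays, Herc1, Nedd4 and Herc2, are shown here by their promoters, because Herc1 and Nedd4 lay on one side of the diet comparison and Herc2 on the other. Each sequence runs 5′ to 3′ over 250 bases before and 50 bases after the annotated gene start, from RefSeq on assembly GRCr8, and all 3 genes are on the + strand. They were Herc1 at chr8:75796107-75796406, Nedd4 at chr8:82264545-82264844 and Herc2 at chr1:116040546-116040845. Capitals mark the GC box GGGCGG on either strand and the palindrome CTCGCGAG, the core of an element known from promoters of housekeeping genes.
Herc1: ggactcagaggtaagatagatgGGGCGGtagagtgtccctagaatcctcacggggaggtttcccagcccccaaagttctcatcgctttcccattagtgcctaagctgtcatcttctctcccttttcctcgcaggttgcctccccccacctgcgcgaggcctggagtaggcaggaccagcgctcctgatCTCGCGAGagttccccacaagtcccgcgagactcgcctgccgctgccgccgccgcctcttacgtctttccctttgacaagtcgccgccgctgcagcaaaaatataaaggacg
Nedd4: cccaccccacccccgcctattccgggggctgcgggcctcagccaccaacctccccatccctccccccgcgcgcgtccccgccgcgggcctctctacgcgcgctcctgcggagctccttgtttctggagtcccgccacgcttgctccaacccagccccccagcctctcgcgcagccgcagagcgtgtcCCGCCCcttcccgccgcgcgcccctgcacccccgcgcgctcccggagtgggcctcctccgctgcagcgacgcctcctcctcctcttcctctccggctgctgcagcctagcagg
Herc2: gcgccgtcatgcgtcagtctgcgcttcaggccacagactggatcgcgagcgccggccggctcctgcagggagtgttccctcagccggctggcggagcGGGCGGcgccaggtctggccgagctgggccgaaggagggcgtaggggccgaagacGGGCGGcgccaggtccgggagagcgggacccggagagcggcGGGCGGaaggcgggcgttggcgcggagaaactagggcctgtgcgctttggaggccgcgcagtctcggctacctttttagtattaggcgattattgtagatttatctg

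The Herc1 sequence held 1 palindrome and 1 GC box, the Nedd4 sequence 1 GC box and the Herc2 sequence 3 GC boxes. Their G and C content was 59.3%, 75.3% and 68.3% in that order, against a median of 51.7% over 33469 promoters of the same length. RefSeq promoters were matched for 7 of the 9 genes (not Herc4 or Ube3c). On either strand, CTCGCGAG was found in 2 of the 7, Herc1 and Huwe1, and in 0.723% of all promoters. GGGCGG was found in 6 of the 7 (not Itch) and in 33.1% of all promoters. The cyclic AMP response element TGACGTCA was found in 0 of the 7 and in 1.83% of all. Its core TGACG, which lies inside that element, was found in Herc2 and Huwe1 and in 21.2% of all. CCAAT was found in Nedd4l alone of the 7 and in 37.5% of all promoters. These motifs were chosen after the sequences had been seen.

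The deposited values were log2 expression values, 1 per probe set and array, and they fell into 2 kinds. For 15 of the 21 probe sets the 9 values spanned from 0.000171 to 0.000822 log2 units, and for the other 6 they spanned from 0.31 to 0.736. Over all rat probe sets, 4849 (15.6%) spanned at least 0.01, against 6 of 21 (28.6%) for the HECT ligases. Probe sets under 0.01 are called compressed below: a difference on them may pass a test, but its size in the deposited values is near 0. How these values were processed is not described, so a size near 0 does not show that the RNA was equal between the diets. The 6 uncompressed probe sets belonged to Herc1 (2), Nedd4 (3) and Herc2 (1). Those of Herc4, Huwe1, Nedd4l, Ube3a and Ube3c were all compressed.

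**Figure D1:**
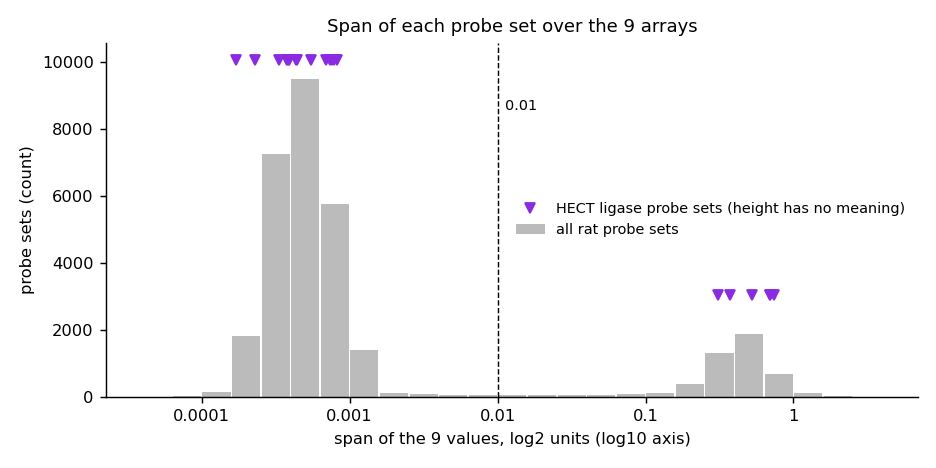
Number of probe sets (vertical axis) by the span of their 9 values, in log2 units on a log10 axis, for all 31042 rat probe sets (grey bars), with the 21 HECT ligase probe sets as triangles whose height carries no meaning. The bars form 2 separate humps, with 15 HECT ligase probe sets under the 0.01 line and 6 above it.

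One array stood apart by its striatal and thalamic neuron markers. The mean level of 7 measured striatal markers was 8.817 on chow 1, from 7.893 to 8.060 on the other 3 chow arrays and from 7.879 to 7.986 on the powder arrays. The mean level of 8 thalamic neuron markers was 9.702 on chow 1, from 10.077 to 10.305 on the other 3 chow arrays and from 10.177 to 10.286 on the powder arrays. For this reason the differences of the uncompressed probe sets described, and the counts of called probe sets, are also given without chow 1. Hypothalamic markers set other arrays apart as well. Their mean level was 8.950 on chow 1, 9.045 on chow 4, 8.820 on powder 3 and 9.058 on powder 4. On the remaining arrays it lay from 7.548 to 8.215. Of 6 uncompressed astrocyte marker probe sets, 2 were higher under chow and 0 lower by limma, namely 1 probe set each of Aqp4 (0.53) and Slc1a3 (0.53). In either direction, 4 had an unadjusted limma p under 0.05, and 2 were called without moderation. A second probe set of each gene was not called, at -0.14 for Aqp4 and 0.021 for Slc1a3. On that Aqp4 probe set all chow arrays lay under all powder arrays. Gfap (-0.20) and Gja1 (0.44) were not called either. The mean level of the 6 astrocyte markers ranged from 10.059 to 10.222 on the chow arrays and from 10.170 to 10.225 on the powder arrays. The part of these cells in the results that follow was not tested, and in whole tissue fewer cells of a type and less RNA per cell cannot be told apart.

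Among the HERC ligases, Herc1 had the widest difference. With all 9 arrays it was also the widest of the 8 measured genes, but Nedd4 1395157_at was close behind and ahead of it without powder 3, powder 4 or chow 2, and with array weights. Herc1 encodes a very large ligase, and a mutation in it causes Purkinje cell degeneration in mice. On probe set 1394746_at it was at 8.83, 8.86, 8.80 and 8.58 on the chow arrays, against 8.31, 8.19, 8.13, 8.24 and 8.45 on the powder arrays. All 4 chow arrays lay above all 5 powder arrays, with chow 4 the lowest of its group and powder 5 the highest of its own. The chow mean was 8.77 ± 0.127 (SD, n = 4) and the powder mean 8.26 ± 0.126 (SD, n = 5), a difference of 0.50 ± 0.0822 log2 units (SE), or 1.42-fold. It ranked 35 from the highest among the 4849 uncompressed probe sets. Without chow 1 the difference was 0.48.

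The second probe set annotated as Herc1, 1369742_at, was at 7.75, 8.05, 7.85 and 7.75 on the chow arrays, against 7.41, 7.35, 7.49, 7.45 and 7.55 on the powder arrays. The groups again did not overlap, and the difference was 0.40 ± 0.0713 (1.32-fold), or 0.43 without chow 1. The sources disagree on which gene it measures. The platform annotation gives Herc1, while the accession it lists for the probe set is a RefSeq transcript of Kcnj3, the gene of a G protein-gated potassium channel subunit, in the RefSeq gene table. Such a conflict was found for 13 of 2902 single-symbol probe sets with a RefSeq accession in that table (0.448%). The 3 probe sets annotated as Kcnj3 (1369740_at, 1369741_at and 1388292_at) were compressed, at -0.000201, 0.000172 and 0.000164, and were not called by limma (adjusted p from 0.0653 to 0.535). The Herc1 result is therefore given from 1394746_at, and 1369742_at is marked with an asterisk in the plots.

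Herc2, a giant ligase that works in DNA repair and as a partner of the Ube3a protein, lay on the other side. It was at 9.33, 9.38, 9.46 and 9.44 on the chow arrays, against 9.59, 9.64, 9.58, 9.56 and 9.54 on the powder arrays. All 4 chow arrays lay under all 5 powder arrays, although the gap between 9.46 and 9.54 was small. The means were 9.40 ± 0.058 under chow and 9.58 ± 0.0388 under powder, a difference of -0.18 ± 0.0312 or 0.88-fold. It ranked 1731 from the lowest among the 4849 uncompressed probe sets, whose median difference was -0.11. Without chow 1 the difference was -0.16. Herc4, the smaller member of the HERC group, known in mice for a role in sperm maturation, had 2 compressed probe sets, near 8.52 and 6.09 on every array, with differences of -0.000319 and 0.000216.

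**Figure D2:**
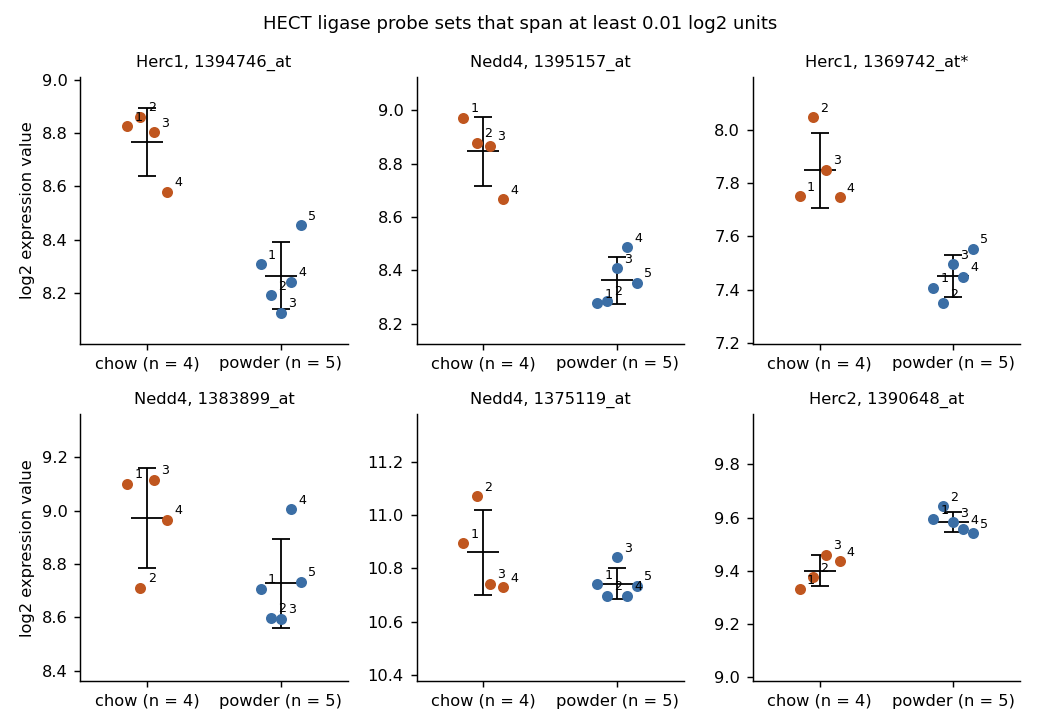
Log2 expression value (vertical axis, each panel 1 log2 unit high) of the 6 uncompressed HECT ligase probe sets on the chow arrays (orange, left, n = 4) and the powder arrays (blue, right, n = 5), with the array number beside each point and bars for the mean ± SD. The groups do not overlap for Herc1 (both probe sets), Nedd4 1395157_at and Herc2, and overlap for the other 2 Nedd4 probe sets. The asterisk marks the probe set with conflicting annotation.

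In the NEDD4 group, Nedd4, a ligase that ubiquitinates growth factor and glutamate receptors and takes part in dendrite growth, had 6 probe sets that did not give 1 common value. On 1395157_at it was at 8.97, 8.88, 8.87 and 8.67 on the chow arrays, against 8.28, 8.29, 8.41, 8.49 and 8.35 on the powder arrays. The groups did not overlap, and the difference was 0.48 ± 0.0698 (1.40-fold), which ranked 43 from the highest of the 4849. The means were 8.85 ± 0.129 under chow and 8.36 ± 0.0874 under powder. As for Herc1 1394746_at, chow 4 was the lowest chow array.

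On 1383899_at Nedd4 was at 9.10, 8.71, 9.12 and 8.97 on the chow arrays, against 8.71, 8.599, 8.594, 9.005 and 8.733 on the powder arrays. The groups overlapped, since chow 2 sat among the powder arrays and powder 4 among the chow arrays. The difference was 0.25 ± 0.115. On 1375119_at, at 10.90, 11.07, 10.74 and 10.73 on the chow arrays and 10.74, 10.70, 10.84, 10.70 and 10.74 on the powder arrays, the groups also overlapped. Its difference of 0.12 ± 0.0743 was carried by chow 1 and chow 2, and was 0.0461 without chow 2.

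The remaining Nedd4 probe sets (1371314_at, 1384326_at and 1386263_at) were compressed, with differences of -1.43e-05, 0.000176 and 0.000218. Without chow 1 the 3 uncompressed ones were at 0.44, 0.20 and 0.11, in the order given above. Which parts of the Nedd4 transcript each probe set reads was not analysed here. Nedd4l, the close relative known for limiting epithelial and neuronal sodium channels, had 1 compressed probe set near 7.76 on every array (-0.000452).

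**Figure D3:**
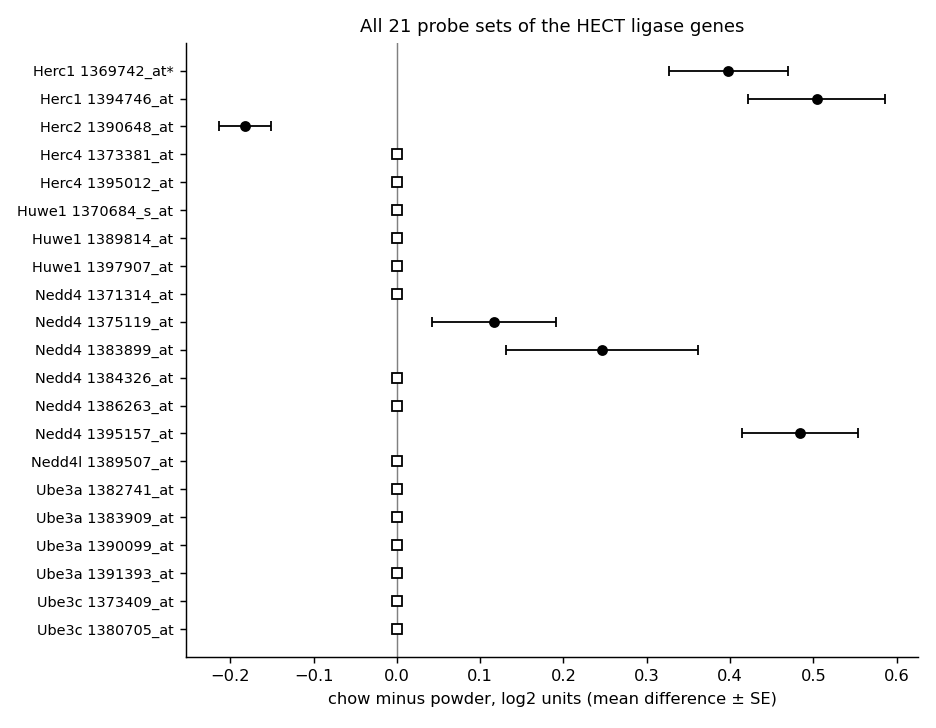
Chow minus powder difference in log2 units (horizontal axis, points with ± SE) for all 21 HECT ligase probe sets, by gene. Filled circles are the 6 uncompressed probe sets, from -0.18 for Herc2 to 0.50 for Herc1, and open squares are the 15 compressed ones, which all sit at 0 on this scale. The asterisk marks the probe set with conflicting annotation.

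The other ligases gave values with almost no spread. Ube3a had 4 probe sets, near 9.35, 7.65, 7.04 and 9.06, with differences from -0.000313 to 0.000257. Huwe1, a large ligase that targets MYC family and MCL1 proteins, had 3 probe sets with differences from -0.000153 to 0.000167. Ube3c, which works on stalled substrates at the proteasome, had 2, at -1.89e-05 and -0.000391. Over the 15 compressed probe sets, 6 differences were above 0 and 9 below, and the largest was a change of 0.0313%. Whether the RNA that they read differed between the diets cannot be told from such values.

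By limma over all rat probe sets, 10 of the 21 were called at an adjusted p under 0.05, 4 higher and 6 lower under chow. The same rule called 34.6% of all rat probe sets, 17.9% higher and 16.7% lower. These counts use the contrast that chose the genes. Without chow 1 they were 4 higher and 5 lower. That omission called 3805 higher and 4301 lower of all 31042 rat probe sets, which also stands beside the later counts without chow 1. The median difference of the 6 uncompressed probe sets was 0.32, against -0.11 over all uncompressed ones. That median includes 1369742_at, whose annotation conflicts, and 3 of the 6 values are of Nedd4 alone. Of the 6, 3 were called higher (both annotated as Herc1, and Nedd4 1395157_at) and 1 lower (Herc2). Of all 4849 uncompressed probe sets, 54.9% were called, 16.1% higher and 38.8% lower. The same 4 HECT ligase probe sets had groups that did not overlap, as did 14.1% of the 4849 with chow higher and 36.0% with chow lower. With 1369742_at left out, 3 of 20 were called higher and 6 lower.

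The calls on compressed probe sets were 1 higher and 5 lower: for Ube3a 1 higher and 2 lower, and for Herc4, Nedd4l and Ube3c 1 lower each. Their direction followed the scaling. After quantile normalization all 15 differences were above 0 and 10 were called higher, and with array medians subtracted all 15 were called higher, so that the split of the 21 became 13 higher and 1 lower, and 18 higher and 1 lower. The uncompressed split stayed at 3 higher and 1 lower under both scalings, beside 1042 higher and 1836 lower, and 1045 higher and 2141 lower, of the 4849.

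Leaving out each array in turn kept the sign of all 6 uncompressed differences. For both Herc1 probe sets, Nedd4 1395157_at and Herc2 this was fixed in advance, since their groups did not overlap. Herc1 1394746_at ranged from 0.47 to 0.57, Nedd4 1395157_at from 0.44 to 0.54, Herc1 1369742_at from 0.33 to 0.43 and Herc2 from -0.20 to -0.16. Nedd4 1383899_at ranged from 0.20 to 0.33. For these 5, no single array moved the value by over 1.5 times. Nedd4 1375119_at ranged from 0.0461 to 0.16 and was the exception.

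**Figure D4:**
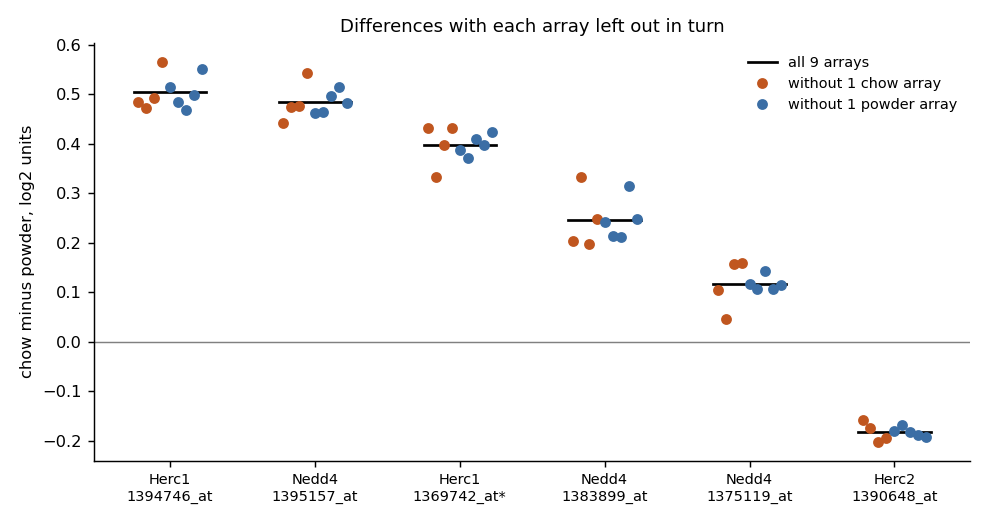
Chow minus powder difference in log2 units (vertical axis) of the 6 uncompressed HECT ligase probe sets, with all 9 arrays (black lines) and with 1 chow array (orange points) or 1 powder array (blue points) left out. The points for Herc1 1394746_at lie between 0.47 and 0.57 and those for Herc2 between -0.20 and -0.16; those for Nedd4 1375119_at reach down to 0.0461, without chow 2. The asterisk marks the probe set with conflicting annotation.

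The deviations of the members from their group means did not move as a block over the 9 arrays. Pearson correlations, given as a description, were highest between Herc1 1369742_at and Nedd4 1375119_at (0.68). They were 0.53 between the 2 probe sets annotated as Herc1 and 0.38 between Herc1 1394746_at and Nedd4 1395157_at. Among the 3 uncompressed Nedd4 probe sets they were 0.39, 0.41 and -0.62. Herc2 ran against Nedd4 1395157_at (-0.64) and against Herc1 1394746_at (-0.51).

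The probe sets whose deviations were most like those of Herc1 1394746_at, out of 3431 uncompressed probe sets of other named genes, were those of Camk2b (r = 0.952 over the 9 arrays), Asap1 (0.936), C11h3orf70 (0.922), Get1 (0.921) and Ezh1 (0.908). Their own differences between the diets were 0.31, 0.56, 0.46, 0.41 and 0.20. For Herc2 they were Camk2d (0.947), Tmem68 (0.941), Hivep1 (0.938), Tbc1d23 (0.932) and Acyp1 (0.930), with differences of -0.10, -0.29, -0.17, -0.30 and -0.022. Each set of 5 was picked as the highest of 3431 or 3432 candidates on 9 arrays, and the points share their arrays and scaling.

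Outside the 9 genes, the other HECT ligases with uncompressed values lay on the side of Herc2. Of 18 genes listed, 16 were measured by 24 probe sets, 3 of them uncompressed, and all 3 were lower under chow. Their median difference was -0.36, against -0.11 over all uncompressed probe sets, of which 38.8% were called lower. Hectd2, a ligase of the HECT group without WW domains, was at 8.05, 7.98, 7.96 and 8.05 on the chow arrays, against 8.35, 8.43, 8.40, 8.36 and 8.31 on the powder arrays. The groups stood well apart (-0.36 ± 0.0302, adjusted p = 0.00154, limma). A second Hectd2 probe set was compressed and not called (0.000357, adjusted p = 0.0674).

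Hecw1 and Hecw2 are neuronal ligases of the NEDD4 group. Hecw1 was at 8.97, 9.15, 9.18 and 9.08 on the chow arrays, against 9.53, 9.50, 9.37, 9.40 and 9.48 on the powder arrays (-0.36 ± 0.0507, limma adjusted p = 0.00425). Hecw2 was at 8.27, 8.52, 8.61 and 8.65 on the chow arrays, against 8.77, 8.85, 8.70, 8.73 and 8.78 on the powder arrays. Chow 1 was the lowest, and the groups did not overlap (-0.25 ± 0.0785, limma adjusted p = 0.0418). Without chow 1 the 3 differences were -0.37 for Hectd2, -0.32 for Hecw1 and -0.17 for Hecw2, all still called. The Hecw2 call was lost without chow 2 or without any 1 powder array (limma adjusted p from 0.0621 to 0.0832). A second Hecw2 probe set was compressed and not called (-7.49e-05, limma adjusted p = 0.547).

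Counting compressed probe sets too, 11 of the 24 were lower (45.8%) and 1 higher under chow (4.17%), against 16.7% lower and 17.9% higher over all rat probe sets. Without chow 1 the counts were 9 lower and 0 higher. Among those lower were Trip12 (-0.000149), Ube3b (-0.000208) and Smurf2 (-0.000283), and the higher one was of Smurf1 (0.000266). Quantile normalization turned the split to 16 higher and 3 lower, and subtraction of array medians to 21 higher and 3 lower. The 1 higher call was absent without any 1 chow array and without powder 3 or powder 4.

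Upstream of the ligases, E1 enzymes activate ubiquitin and E2 enzymes carry it. Of 32 such genes, 27 were measured by 53 probe sets, with 6 higher and 9 lower under chow. These 15 calls were 28.3% of the list, under the 34.6% of all rat probe sets. Of the 7 uncompressed ones, 2 were higher and 2 lower (57.1% called, against 54.9% of all uncompressed ones), with a median difference of 0.0632. Ube2k, an E2 that builds degradation-type ubiquitin chains, was at 9.15, 9.09, 9.22 and 9.06 on the chow arrays, against 9.41, 9.35, 9.33, 9.40 and 9.39 on the powder arrays (-0.24 ± 0.035, limma adjusted p = 0.0045), and its other 3 probe sets were compressed and not called. Ube2g1, an E2 that extends ubiquitin chains, rose by 0.23 ± 0.0472 (limma adjusted p = 0.0128). Ube2a, the RAD6 homologue, rose by 0.14 ± 0.0336 (limma adjusted p = 0.0177). A second probe set of Ube2g1 (-0.000175) and of Ube2a (-7.45e-05) was compressed and not called.

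Ube2q2 differed by a small and very even amount, -0.097 ± 0.00514 (limma adjusted p = 0.000595), with chow arrays from 10.00 to 10.02 and powder arrays from 10.10 to 10.12. Another Ube2q2 probe set was compressed and not called (0.000145, limma adjusted p = 0.172). Ube2l3, the E2 most often paired with HECT ligases, was at 0.063 ± 0.0467 and was not called (limma adjusted p = 0.31), nor without chow 1 (0.048, limma adjusted p = 0.509). Without chow 1, Ube2k (-0.25), Ube2g1 (0.24), Ube2a (0.15) and Ube2q2 (-0.099) were still called. The 6 higher calls became 3 without chow 1, chow 3 or powder 2, and the 9 lower ones 8 without chow 1. With quantile normalization 43 were higher and 2 lower, and with medians subtracted 49 and 3.

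**Figure D5:**
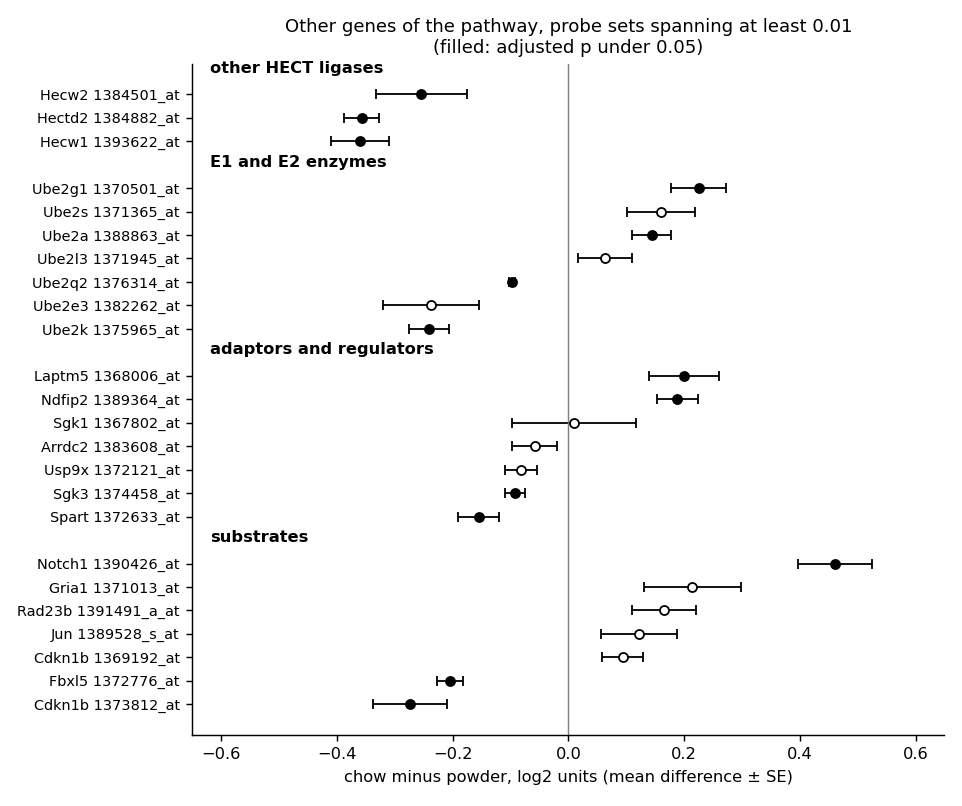
Chow minus powder difference in log2 units (horizontal axis, points with ± SE) for the uncompressed probe sets of other HECT ligases, E1 and E2 enzymes, adaptors and regulators, and substrates. Filled points were called by limma (adjusted p under 0.05) and open points were not; the 3 other HECT ligases all sit left of 0, from -0.36 to -0.25, and the other 3 lists lie on both sides.

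Adaptors and regulators decide where NEDD4 group ligases act. All 18 listed genes were measured, by 30 probe sets, with 7 higher and 3 lower under chow, and 2 higher and 2 lower among 7 uncompressed ones (median difference -0.058). The calls were 33.3% of the list and 57.1% of its uncompressed probe sets, near the 34.6% and 54.9% over all. Ndfip2, a membrane adaptor that binds and activates Nedd4 group ligases, was at 10.11, 10.10, 10.23 and 10.12 on the chow arrays, against 9.95, 9.94, 9.88, 10.02 and 9.97 on the powder arrays. On this probe set it was thus higher on every chow array (0.19 ± 0.0357, limma adjusted p = 0.00956). A second Ndfip2 probe set was compressed and not called (-7.41e-05, limma adjusted p = 0.536). Laptm5, a lysosomal membrane protein that binds Nedd4 and is abundant in blood-derived cells, rose by 0.20 ± 0.0605 (limma adjusted p = 0.0391). It was not called without chow 1, 2 or 3 or without any 1 powder array (limma adjusted p from 0.0506 to 0.0872). Its difference without chow 1 was 0.15. A second Laptm5 probe set was compressed and not called (0.000231, limma adjusted p = 0.0764).

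Spart, which recruits NEDD4 group ligases to lipid droplets, fell by 0.16 on the log2 scale (-0.155 ± 0.0355, limma adjusted p = 0.0167). A second Spart probe set was compressed and not called (0.000162, limma adjusted p = 0.23). Sgk3, a kinase related to Sgk1, was at -0.092 ± 0.0174 (limma adjusted p = 0.00934). Sgk1, the kinase that restrains Nedd4l, was at 0.0096 ± 0.107 with all arrays (limma adjusted p = 0.951). That value rests on chow 1, at 9.05 where the other chow arrays lay from 9.32 to 9.56: without it the difference was 0.11, also not called (limma adjusted p = 0.306). Without chow 1, Ndfip2 (0.20), Spart (-0.17) and Sgk3 (-0.082) were still called. The 7 higher calls became 4 without chow 2 or powder 3, and without chow 1 the counts were 5 higher and 2 lower. With quantile normalization 18 were higher and 2 lower, and with medians subtracted 25 and 3.

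Of 38 genes known as substrates of HECT ligases, 31 were measured by 49 probe sets, with 9 higher and 8 lower under chow. These 17 calls were 34.7% of the list, close to the 34.6% of all rat probe sets. Of 7 uncompressed probe sets, 1 was higher and 2 were lower (42.9% called, against 54.9% of all uncompressed ones), with a median difference of 0.12. Notch1, the receptor whose turnover involves Itch, was at 8.23, 8.50, 8.24 and 8.39 on the chow arrays, against 7.82, 7.80, 7.94, 7.88 and 7.94 on the powder arrays. The groups stood apart (0.46 ± 0.0643, limma adjusted p = 0.00413). A second Notch1 probe set was compressed and not called (-0.000244, limma adjusted p = 0.0833). Fbxl5, the iron-sensing F-box protein that Herc2 targets, fell by 0.21 on the log2 scale (-0.205 ± 0.0222, limma adjusted p = 0.00232).

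Cdkn1b, a cell cycle inhibitor, was at -0.27 ± 0.0642 on one probe set (limma adjusted p = 0.018) and at 0.094 ± 0.0357 on another, which was not called (limma adjusted p = 0.0762). Gria1, the AMPA receptor subunit that Nedd4 ubiquitinates, was at 8.49, 8.11, 8.09 and 8.11 on the chow arrays, against 7.94, 8.02, 8.04, 7.98 and 7.95 on the powder arrays. Chow 1 was far the highest. The difference of 0.21 ± 0.084 was not called (limma adjusted p = 0.0835), while without chow 1 it was 0.12 and was called (limma adjusted p = 0.0216). Without chow 1, Notch1 (0.50), Fbxl5 (-0.21) and the called Cdkn1b probe set (-0.23) were still called. The 9 higher calls became 5 without chow 2 or powder 2 and 4 without powder 1, and without chow 1 the counts were 6 higher and 9 lower. With quantile normalization 36 were higher and 2 lower, and with medians subtracted 46 and 2. Arrays measure RNA only, so ligase activity and the level of substrate proteins were not measured here.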

How the data were processed

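Thalamic RNA (TRIzol, then RNeasy) was turned into biotin-labelled cRNA for 1-colour arrays, per the labels' protocols. The deposited table gives every probe set a log2 value on each array; the scale was read from its range, 5.37 to 14.05. Software, background correction and normalization have no description (not given in the sources used here), and any centring is unknown. Array medians lay from 7.391 to 7.402, so no further scaling was applied in the main comparison. No scanner file or detection call was used here, and the number of arrays limits the precision.

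After 57 control probe sets were left out, the 2 diets were compared by limma 3.58.1 under R 4.3.3 (lmFit, eBayes, no covariates) over 31042 rat probe sets, with Benjamini-Hochberg adjustment over all of them and a threshold of 0.05. Differences are chow minus powder. The fit was tested on simulated data with independent noise for each probe set and array. Shifts shared by the probe sets of an array were not simulated, so that test does not cover them. Of the rat probe sets, 20826 had 1 gene symbol, 436 several and 9780 none listed. Accessions were matched to the RefSeq gene table of GRCr8, which held the gene IDs of all 8 measured genes. The members, the 4 pathway lists, the marker lists and the 0.01 limit were chosen with earlier results of these data known. Genes named outside the members were, for each list, at most 10 with the largest difference among called uncompressed probe sets, and the 5 most correlated with Herc1 and with Herc2. Others were named after their values were seen. The alternatives tried were 2 scalings, a trended robust variance, array weights, a block on replicate number, omission of each array in turn, filters on dim and on compressed probe sets, 1 probe set per gene, no moderation, and 2 other thresholds. Leaving out the probe set with conflicting annotation was added after seeing the data.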

Additional observations from a re-analysis of the deposited data

Results flagged for a closer look

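In 3 of the 40 groups of values checked, 1 array lay far from its group, where chance gives about 1 in 20. Ube2g1 was at 8.903 on chow 3, with the nearest chow array at 8.698. Ndfip2 was at 10.230 on chow 3, with the nearest chow array at 10.120. Spart was at 8.762 on powder 4, with the nearest powder array at 8.855. Each of the 3 genes was still called with any 1 array left out. For the 6 uncompressed probe sets of Herc1, Nedd4 and Herc2, no array was set apart in this way.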

How the results depend on the processing

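The 6 uncompressed differences of Herc1, Nedd4 and Herc2 kept their sign and moved by less than the spread between arrays in all 15 alternatives run for each. With 1 array left out, a move under that spread was fixed in advance by the group sizes. The trended variance and the filter on dim probe sets cannot change a difference. Only the 2 scalings, array weights and the replicate block could have moved one further. Counts of called probe sets moved more. They follow as higher and lower under chow for the 9 genes, other HECT ligases, E1 and E2 enzymes, adaptors and regulators, and substrates in turn, against 4 and 6, 1 and 11, 6 and 9, 7 and 3, and 9 and 8 as reported. Quantile normalization gave 13 and 1, 16 and 3, 43 and 2, 18 and 2, and 36 and 2. Subtracting array medians gave 18 and 1, 21 and 3, 49 and 3, 25 and 3, and 46 and 2. Taking 1 probe set per gene gave 1 and 3, 0 and 10, 1 and 5, 2 and 2, and 5 and 7. That setting gave 2015 and 2669 over all 14217 genes. Without compressed probe sets the counts were 3 and 1, 0 and 3, 3 and 3, 2 and 3, and 3 and 2. They were 865 and 2019 over all 4849 uncompressed probe sets. Requiring a difference of at least 0.1 gave 3 and 1, 0 and 3, 2 and 1, 2 and 1, and 1 and 2. It gave 705 and 1690 over all 31042 rat probe sets. An adjusted p under 0.1 gave 5 and 6, 2 and 12, 9 and 13, 10 and 7, and 17 and 11. By that threshold 7974 and 6763 of all 31042 rat probe sets were called. Array weights left 0 other HECT ligases higher. Leaving out 1 array in turn gave 4 to 5 and 4 to 6, 0 to 1 and 8 to 11, 3 to 9 and 7 to 12, 4 to 7 and 2 to 4, and 4 to 9 and 7 to 10. For all 31042 rat probe sets the same omissions gave 3661 to 4879 higher and 3906 to 4843 lower. Fewer probe sets enter the filtered counts by construction; for the rest the cause was not tested.

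With the replicate number as a replicate block over 8 arrays, 0 probe sets were called in each of the 5 lists, and 1 higher and 18 lower over all rat probe sets, against 5558 and 5195. At an unadjusted p under 0.05 that fit gave 11 of 21, 11 of 24, 15 of 53, 11 of 30 and 20 of 49. The share of all rat probe sets at that threshold is not given here, so nothing is read from these counts. Whether the numbers pair the arrays is not known. Deviations of same-numbered arrays correlated at -0.306, 0.186, -0.344 and -0.164. Arrays of different numbers were not compared in this way, so these values cannot decide it. Over all rat probe sets, quantile normalization gave 15610 higher and 1854 lower, and subtracting medians 27206 and 2141; the median difference over them was 0.0035 and 0.0066, against 5e-05 as deposited. No detection level is known, so it cannot be said which probe sets lay above background.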

Other observations

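The marker lists of other cell types and regions gave few calls on uncompressed probe sets by limma. Thalamic neuron markers had 0 higher and 1 lower of 13 (Tcf7l2, -0.30), general neuron markers 1 higher (Syt1, 0.42) and 2 lower (Nefm, -0.28, and Snap25, -0.022) of 6, oligodendrocyte markers 0 higher and 1 lower of 10 (Mobp, -0.13) and endothelial markers 0 higher and 1 lower of 2 (Flt1, -0.41). The other uncompressed Tcf7l2 probe sets were at -0.26, 0.0066 and 0.21, and those of Mobp at -0.13 and 0.11, none of them called. Markers of striatum (9), cortex (2), habenula (1), hypothalamus (5), microglia (3) and choroid plexus (2) had 0 called, and at an unadjusted p under 0.05 the counts were 0, 1, 0, 1, 0 and 0. Without moderation 0 of these were called. Hypothalamic markers differed most between arrays, with a mean level from 8.154 to 9.045 on the chow arrays and from 7.548 to 9.058 on the powder arrays.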
